A study of Mus musculus with 6 samples.

Results

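Cells made from mouse fibroblasts by direct reprogramming to muscle were compared with both of their reference cell types at the same time, by setting the 2 libraries of reprogrammed cells against the average of the MEF and the Muscle group on a log2 scale. RNA sequencing of 6 libraries covered 2 of MEF (mouse embryonic fibroblasts), 2 of Muscle and 2 labelled as direct reprogramming with the source name "Transdifferentiontion cell", called transdifferentiated cells here. Library names begin with STauMEF for MEF, SEndomuscle for muscle and SiMuscle for transdifferentiated cells, and no meaning was read from these names. Beyond them, the sources used here give no genotype, strain, age, conversion factor, time after conversion or source of the muscle. They do not tell if replicates were separate cultures or animals. A p-value here thus covers only the spread between these libraries, which may be technical. All 17400 genes with enough counts, of 55286 symbols in the table, entered the contrast. A gene was taken to lie outside the range of both references when it was called higher, or lower, against MEF and against muscle each (edgeR quasi-likelihood test, Benjamini-Hochberg adjusted p under 0.05 over all tested genes). This held for 562 genes, 456 above and 106 below. Macrophage genes were counted and set aside.

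In direct reprogramming, a lineage-determining transcription factor is introduced into a differentiated cell, which then takes up another identity without passing through a pluripotent state. For skeletal muscle the textbook factor is MyoD, a basic helix-loop-helix protein that binds E-boxes (CANNTG) and starts a cascade through myogenin and MEF2 to the genes of the sarcomere. The study's title contrasts this change of identity with DNA methylation, the covalent mark that keeps imprinted genes and many lineage genes silent in the cells that do not use them. A gene beyond both references is one whose level the starting cell and the target cell do not bracket.

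Promoter sequences are shown for Atp1b4, Tnn and Thbs4, which lay far above both references, and for Inhba, which lay below both, so that the bases next to their start sites stand beside the expression values. Each is the 5′ to 3′ sequence before the RefSeq start site on GRCm38.p6, without bases inside the GENCODE gene, with E-boxes (CANNTG) and the TEAD motif (GGAATG or its reverse complement CATTCC) in capitals:
Atp1b4, chrX:38315872-38316121, plus strand: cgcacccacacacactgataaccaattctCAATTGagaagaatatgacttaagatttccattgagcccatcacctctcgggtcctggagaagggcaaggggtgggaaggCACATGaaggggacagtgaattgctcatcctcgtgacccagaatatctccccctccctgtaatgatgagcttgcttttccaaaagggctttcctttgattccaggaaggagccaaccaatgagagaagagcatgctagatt
Tnn, chr1:160153581-160153825, minus strand: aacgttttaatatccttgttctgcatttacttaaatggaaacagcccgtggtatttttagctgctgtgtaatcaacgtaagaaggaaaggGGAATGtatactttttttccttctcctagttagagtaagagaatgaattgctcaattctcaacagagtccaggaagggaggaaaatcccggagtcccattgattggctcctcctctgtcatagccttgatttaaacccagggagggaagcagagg
Thbs4, chr13:92794819-92795068, minus strand: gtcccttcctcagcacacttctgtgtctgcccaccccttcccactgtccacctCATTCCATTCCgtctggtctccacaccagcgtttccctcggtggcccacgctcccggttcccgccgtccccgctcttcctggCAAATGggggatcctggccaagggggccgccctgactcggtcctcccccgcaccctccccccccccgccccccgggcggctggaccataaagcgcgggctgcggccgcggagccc
Inhba, chr13:16011601-16011850, plus strand: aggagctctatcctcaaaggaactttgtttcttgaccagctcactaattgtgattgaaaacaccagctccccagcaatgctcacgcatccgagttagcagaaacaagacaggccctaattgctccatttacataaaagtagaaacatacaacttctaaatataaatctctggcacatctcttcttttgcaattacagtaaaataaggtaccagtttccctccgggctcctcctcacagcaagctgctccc
The Atp1b4 window holds 2 E-boxes, the Thbs4 window 1 E-box and 2 overlapping TEAD motifs, the Tnn window 1 TEAD motif, and the Inhba window none of these letters. Over the 278 windows of 250 bases that matched 216 of the genes above both references outside the leukocyte lists, 66.5% held an E-box on either strand, against 66.2% of 32851 windows of all promoters and 66.3% of 92 windows of 66 genes below both. The shares with the TEAD motif were 11.5% above, 10.9% below and 12.6% of all, those with the MEF2 motif CTANNNNTAG 2.52%, 2.17% and 3.2%, and those with the AP-1 motif TGANTCA 5.04%, 9.78% and 6.75%. A match describes letters in a window and is no evidence of binding.

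The libraries held between 16817033 and 24584951 counted reads, and levels are given as CPM, the count relative to the library total after TMM scaling. The 10 most abundant genes took 9.07% to 11.1% of a library. The labels were checked against defining markers. Myod1, which starts the muscle programme, was at 1.43 and 0.534 CPM in MEF, 724 and 622 CPM in muscle and 559 and 1189 CPM in transdifferentiated cells, and the fibroblast surface gene Thy1 was at 935 and 574, 25.4 and 18.7, and 79.4 and 125 CPM. Myod1 was high in muscle and transdifferentiated cells, and Thy1 was highest in MEF. The conversion factor is not given, so Myod1 reads may include those of an introduced copy, which was not tested. The 38 adult sarcomere genes summed to 1656 and 1301 CPM in MEF, 82930 and 81700 CPM in muscle, and 63050 and 75940 CPM in transdifferentiated cells. In bulk RNA, fewer cells of a type and less RNA per cell cannot be told apart. The median log2 difference of all tested genes was 0.08 from the average, 0.07 from MEF and 0.03 from muscle.

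Against the average of both references, 2106 genes were higher in transdifferentiated cells (12.1% of those tested) and 529 were lower (3.04%). A call against the average does not place a gene outside the references. Of the 2106 higher genes, 603 had a level between the reference means, 474 of them with muscle above MEF, as for sarcomere genes. Another 1047 lay beyond both means without being called against both, and 456 were called above both. Of the 529 lower genes, 72 lay between the references, 351 lay beyond both without both calls, and 106 were called below both. Against MEF alone 15.9% of genes were higher and 11.3% lower, and against muscle alone 7.58% were higher and 2.46% lower. Genes called above both made up 2.62% and genes called below both 0.609% of those tested. All 562 had transdifferentiated libraries outside the range of the 4 reference libraries. With no test asked for, 1926 of the 17400 tested genes lay above in this way and 1244 below. Such separation is thus shared by every called gene and adds no support to a call. Left-out libraries changed the counts of called genes. Without Muscle replicate 1, 287 genes were above both (269 of them in the full set) and 40 below. Without Muscle replicate 2 the counts were 236 (227 shared) and 49, and without transdifferentiated replicate 1 they were 342 above and 63 below (52 shared). The genes lower than the average numbered 254 and 325 without Muscle replicates 1 and 2 and 247 without transdifferentiated replicate 1.

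**Figure D1:**
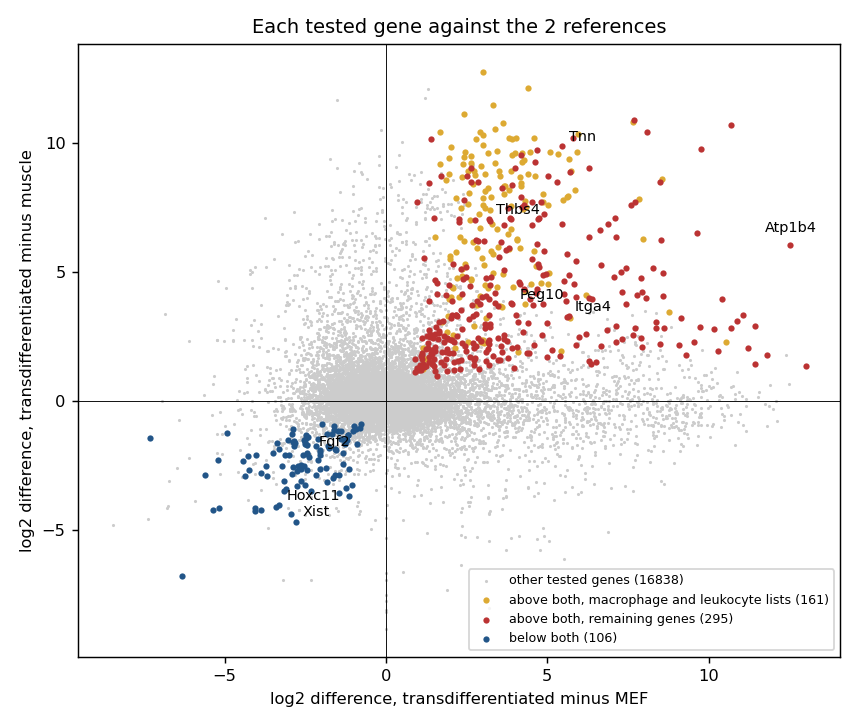
Log2 difference of transdifferentiated cells from MEF (horizontal) and from muscle (vertical) for every tested gene, each point 1 gene. Genes called above both references lie in the upper right and genes called below both in the lower left. Atp1b4, Tnn and Thbs4 sit far out in the upper right.

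Of the 456 genes above both, 128 came from the macrophage and myeloid list and 33 more from a list of further leukocyte genes that was drawn up after the values were seen. The 295 that remained, 1.73% of the 17073 tested genes outside those lists, are described here. They had a median log2 distance from the nearer reference of 2.42 (2.38 with genes at 0 counts in a reference set to their bound), 289 of them were at least 2-fold from it, and 104 reached 20 CPM. MEF was the nearer reference for 153 and muscle for 142. The references were not called different from each other for 183 of them. Protein-coding genes numbered 264. Together the 295 genes summed to 5379 to 6151 CPM in the 4 reference libraries and to 28230 and 29190 CPM in the transdifferentiated ones. The 105 genes below both outside those lists had a median log2 distance of -1.78, and their summed level was 6962 and 7688 CPM in muscle, at least 13180 CPM in MEF, and 1934 and 2198 CPM in transdifferentiated cells. The rule's edge lay at H2bc1, with a larger adjusted p of 0.0497 and a log2 distance of 1.89, just inside, and Dmp1 (adjusted p 0.0505) just outside. Below, Wfdc2 (0.0491 and -4.23) was just inside and Cdkn1c (0.0501 and -0.87) just outside.

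Atp1b4 lay farthest above both references among genes of at least 20 CPM outside the macrophage list. It is an X-linked relative of the sodium pump's beta subunits that in placental mammals became a muscle protein of the inner nuclear membrane. On chromosome X (38316184 to 38336769, mm10), it was at 0 and 0.0486 CPM in MEF, 4.14 and 1.4 CPM in muscle, and 199 and 179 CPM in transdifferentiated cells. The transdifferentiated libraries were close to each other and far above all 4 others. The log2 difference from muscle was 6.06 ± 0.52 (SE; edgeR adjusted p = 0.00028). MEF held 1 count, which gives a ratio of 7300.0 with a 95 percent Poisson interval from 1310.0 to 288000.0, covering counting error only. Here and below, an "at least" fold is set against the limit that 0 counts allow, 3 counts per library or 0.155 CPM.

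None of the other 9 tested members of the sodium pump family was called outside both references. Of all tested genes, 2.62% were above both and 0.609% below. Sodium pump subunits drive sodium out and potassium into the cell, and the FXYD proteins tune them. Fxyd6 was at 12.4 and 11.8, 461 and 444, and 464 and 628 CPM, above MEF and not called against muscle. Atp1b2 and Fxyd1 were higher than in MEF and not called against muscle. Atp1b1 was lower than in muscle (adjusted p = 0.0193) and not called against MEF, and Atp1b3 and Fxyd5 were called against neither.

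Tnn encodes tenascin-N, an extracellular matrix glycoprotein of developing and remodelling connective tissue, and it had the next largest distance. On chromosome 1 (160085029 to 160153580), it was at 1.05 and 1.36 CPM in MEF, 0.0853 and 0 CPM in muscle, and 55.7 and 50.1 CPM in transdifferentiated cells. Both transdifferentiated libraries were alike, and they lay apart from the references as in every called gene. The log2 difference from MEF was 5.45 ± 0.41 (SE; edgeR adjusted p = 2.68e-05). Muscle held 2 counts, for a ratio of 1050.0 (95 percent Poisson interval 291 to 8670.0).

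Tnn was 1 of 4 tenascins and matricellular genes above both among 25 tested, where 2.62% of all tested genes were. No member was below both. Thbs4, thrombospondin 4 of tendon and muscle matrix, was at 18.6 and 12.6 CPM in MEF, 1.71 and 0.304 CPM in muscle, and 138 and 147 CPM in transdifferentiated cells. Its log2 differences were 3.19 ± 0.50 from MEF and 7.06 ± 0.62 from muscle (SE; edgeR adjusted p = 0.00189 and 0.000332). Tnr, tenascin-R, was at 0.165 and 0.0971, 0.213 and 0, and 10.3 and 10.8 CPM. Its log2 difference from MEF was 6.28 ± 0.72 (adjusted p = 0.000341). Vtn, vitronectin, at 1.74 and 3.2 CPM against 0 and 0 in MEF, lost its call without Muscle replicate 2 (adjusted p = 0.148) or transdifferentiated replicate 2 (0.137). Of the other 21 members, Tnc (3027 and 2653, 1606 and 1024, and 1400.2 and 1708 CPM), Thbs1 (16723 and 14218, 3259 and 2323, and 1385 and 2186 CPM), Thbs2, Ccn1, Ccn2, Ccn4, Ccn5, Fbln2, Fbln5, Fn1 and Smoc2 were lower than in MEF, and of these Ccn5 and Fbln5 were also higher than in muscle. Ccn3, Fbln1, Smoc1, Thbs3 and Tnxb were higher than in muscle and not called against MEF. Sparcl1 was higher than in MEF and at an adjusted p of 0.0517 against muscle, and Sparc, Spp1, Postn and Fbln7 were called against neither.

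Collagens gave 4 of 37 tested genes above both and none below, where 2.62% and 0.609% of all tested genes were. Col14a1, which binds fibrils, was at 12.2 and 11.3 CPM in MEF, 2.73 and 1.95 CPM in muscle, and 67.7 and 64.2 CPM in transdifferentiated cells. Col22a1, a collagen of the muscle-tendon junction, was at 0.0551 and 0.0971, 0.384 and 0, and 7.14 and 9.83 CPM. Col23a1, a transmembrane collagen, was at 0.716 and 0.486, 7.51 and 8.16, and 30.6 and 40.3 CPM. These 3 exceeded the nearer reference by 2.49 ± 0.28, 5.26 ± 0.80 and 2.18 ± 0.32 (log2, SE; edgeR adjusted p = 0.00029, 0.00407 and 0.00298). The fibrillar Col3a1 was called as well, with a log2 difference of 1.03 ± 0.31 from MEF (adjusted p = 0.0363), and lost its call without MEF replicate 1 (0.109), Muscle replicate 1 (0.0629), Muscle replicate 2 (0.286) or transdifferentiated replicate 1 (0.193). Lum, a small proteoglycan that organises collagen fibrils, was at 43.5 and 49.4 CPM in MEF and 163 and 99.3 CPM in transdifferentiated cells. It lost its call without transdifferentiated replicate 1, at a log2 distance of 1.1. Lum was the 1 of 34 fibroblast identity genes above both (2.94%), and nothing about the list is read from 1 gene. The share was 2.62% over all tested genes and 1.73% over those outside the leukocyte lists.

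Others of the 12 genes farthest above both encode proteins of several kinds. Mgam, the maltase-glucoamylase of the gut brush border, was at 0.881 and 0.583 CPM in MEF, 1.32 and 1.34 CPM in muscle, and 28 and 39.7 CPM in transdifferentiated cells. Both reference groups were low, and the log2 difference from muscle, the nearer one, was 4.66 ± 0.39 (SE; edgeR adjusted p = 0.000251). Sdk2, a homophilic adhesion protein of synapses, was at 1.27 and 0.971, 5.29 and 1.89, and 34.4 and 73 CPM, and exceeded muscle by 3.88 ± 0.55 (adjusted p = 0.00287). Itga4, the alpha 4 integrin that binds VCAM-1 and fibronectin, was at 6.72 and 7.82, 44.3 and 29.6, and 424 and 287 CPM. It exceeded muscle by 3.27 ± 0.32 (adjusted p = 0.000508). Itga4 is carried by leukocytes as well as by myoblasts. Ctla2a, a cysteine protease inhibitor, was at 4.74 and 11.8, 4.65 and 5.17, and 118 and 35.1 CPM, with its libraries further apart than those of the others. Fcrls, a receptor-like gene of macrophages, was at 2.42 and 1.94, 0.426 and 0, and 71.7 and 57.2 CPM. It was absent from the macrophage list used to choose these 12, but is one of the 33 further leukocyte genes and so not among the 295. D430019H16Rik was at 18.9 and 22.8 CPM against 3.5 or less in every reference library. Wipf3, an actin regulator, and Eef1a2, the translation elongation factor of muscle and neurons, were at 19 and 33.3 and at 18.5 and 27.6 CPM. Both lost their call without Muscle replicate 2 (adjusted p = 0.0554 and 0.0528).

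**Figure D2:**
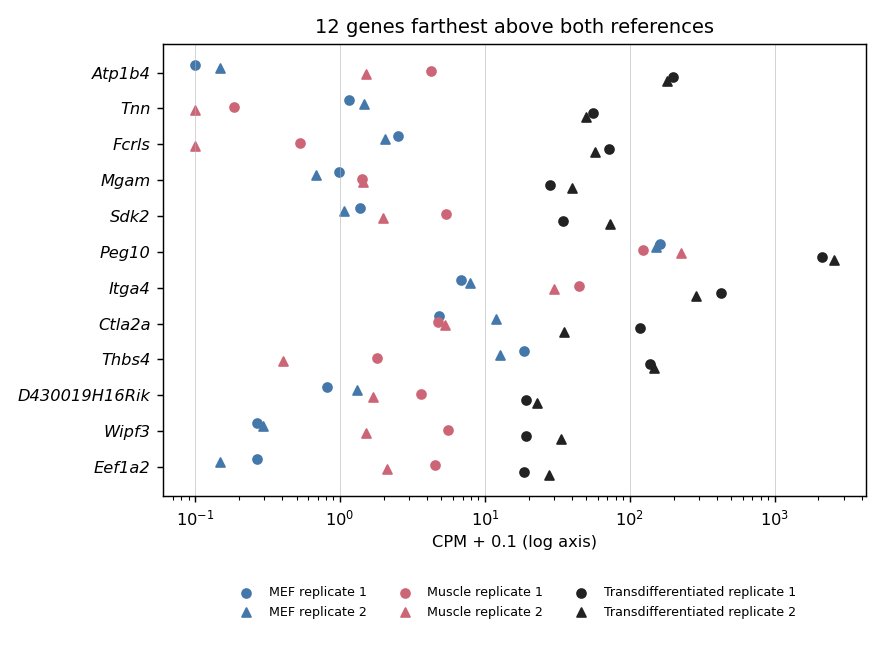
Level of the 12 genes farthest above both references in each library, as CPM plus 0.1 on a log axis. Circles are replicate 1 and triangles replicate 2. Genes were chosen only where both transdifferentiated libraries lie to the right of all 4 reference libraries.

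Abundant genes were among those above both too, and they are named here after their values were seen. Fhl1, a LIM-domain protein of skeletal muscle, was at 382 and 543 CPM in MEF, 769 and 699.5 CPM in muscle, and 3364 and 2722 CPM in transdifferentiated cells. It exceeded muscle by 2.05 ± 0.27 (log2, SE; edgeR adjusted p = 0.00195). Mfap4, a microfibril-associated glycoprotein, was at 98.9 and 55.5, 86.6 and 125, and 427 and 563 CPM, and Nrk, an X-linked kinase gene, at 9.69 and 17, 64.4 and 77.1, and 347 and 292 CPM. Mss51, a mitochondrial protein of skeletal muscle, was at 0.441 and 0.291, 21.6 and 12.8, and 131 and 111 CPM. In each of these the nearer reference was exceeded more than 4-fold, and no left-out library ended a call. Smtnl2, at 22.4 and 23.1 CPM in muscle and 86.6 and 122 CPM in transdifferentiated cells, lost its call with DESeq2 (adjusted p = 0.329) and without Muscle replicate 1 (0.161) or 2 (0.169). Shisa9, an auxiliary protein of glutamate receptors, had 0 counts in all 4 reference libraries and 8.66 and 12.6 CPM in transdifferentiated cells, at least 68.5-fold above MEF and 68.6-fold above muscle.

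Imprinted genes gave 6 of 35 tested above both references and 1 below, where 2.62% and 0.609% of all tested genes did. Imprinting silences 1 parental copy of a gene through DNA methylation set in the germ line. Peg10, a paternally expressed gene derived from a retrotransposon, was at 161 and 150.4 CPM in MEF, 122 and 226 CPM in muscle, and 2127 and 2582 CPM in transdifferentiated cells, with a log2 difference of 3.84 ± 0.26 from the average and of 3.76 ± 0.35 from muscle (SE; edgeR adjusted p = 3.62e-05 and 0.000363). Mest, paternally expressed in mesoderm, was at 77.7 and 80.0, 41.2 and 63.4, and 540.4 and 475 CPM, 2.69 ± 0.28 above MEF on the log2 scale (adjusted p = 0.00021). For both genes the 2 transdifferentiated libraries stood apart from all 4 reference libraries, as for every called gene.

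The other 4 lie in the Dlk1-Dio3 cluster on chromosome 12, where non-coding RNAs are expressed from the maternal copy and Dlk1, Rtl1 and Dio3 from the paternal one. Meg3, a long non-coding RNA, was at 1377 and 748 CPM in MEF, 304 and 143 CPM in muscle, and 2909.6 and 4844 CPM in transdifferentiated cells. Rian, which hosts small nucleolar RNAs, was at 456 and 709, 84.9 and 82.8, and 3318 and 2522 CPM, and Mirg, which hosts and overlaps microRNAs, at 83.3 and 55.2, 8.96 and 6.03, and 243 and 348 CPM. Rtl1, a retrotransposon-derived gene antisense to which microRNAs lie, was at 4.9 and 5.05, 1.62 and 1.1, and 18.7 and 22 CPM. MEF was the nearer reference for all 4, and the log2 differences from it were 1.87 ± 0.45, 2.33 ± 0.29, 2.09 ± 0.33 and 2.03 ± 0.34 (SE; edgeR adjusted p = 0.0146, 0.000583, 0.00196 and 0.00235). Dlk1 itself, at 268 and 143, 2.9 and 0.304, and 356 and 652 CPM, was not called against MEF (adjusted p = 0.167), and Dio3 lay between the references. Grb10, the 1 imprinted gene below both, was at 445 and 478, 235 and 190.3, and 111 and 119.9 CPM and lost its call without Muscle replicate 1 (0.324) or 2 (0.147) or transdifferentiated replicate 1 (0.21) or 2 (0.123).

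**Figure D3:**
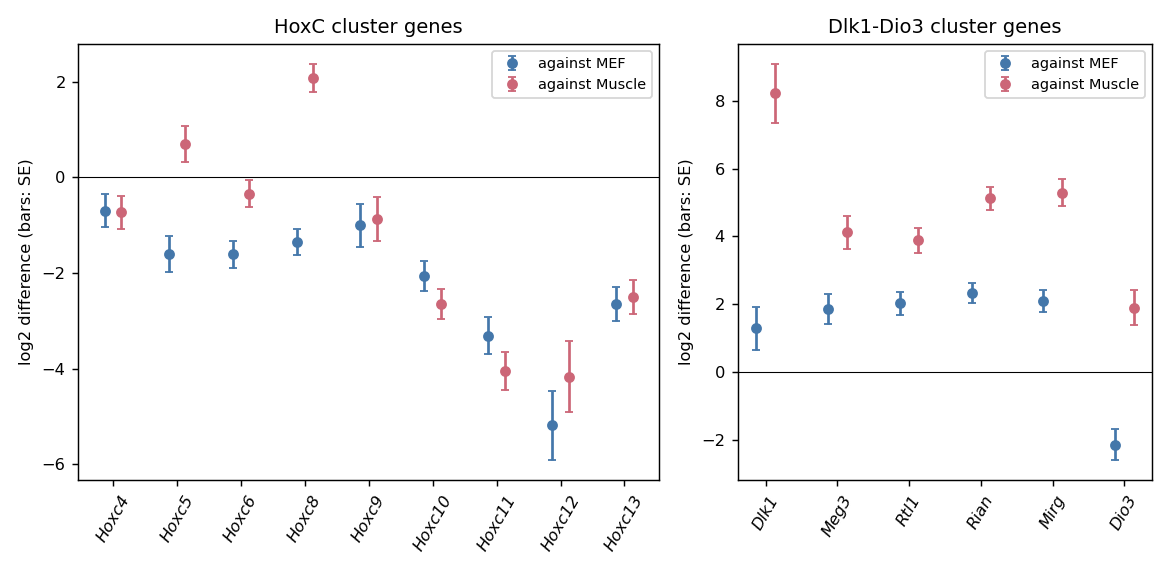
Log2 difference of transdifferentiated cells from MEF and from muscle for each tested HoxC gene and each of 6 Dlk1-Dio3 genes, with bars for the SE. Hoxc10 to Hoxc13 lie below 0 against both references, and Meg3, Rtl1, Rian and Mirg lie above 0 against both.

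Genes known from astrocytes, the glia that support neurons, were above both references in 13 of 27 tested cases, beside 2.62% of all tested genes. The list was added after the values were seen, so its count is a description. Apart from Apoe, none of the 13 reached a mean of 20 CPM in transdifferentiated cells. Slc39a12, at a mean of 0.937 CPM, lost its call with DESeq2 (adjusted p = 0.0596). Hepacam, at 1.94 CPM, lost its call without Muscle replicate 2 or transdifferentiated replicate 1. Gfap, the intermediate filament of astrocytes, was at 0.165 and 0.243 CPM in MEF, 0 and 0.0609 CPM in muscle, and 15.7 and 17.3 CPM in transdifferentiated cells, 6.28 ± 0.54 above MEF (log2, SE; edgeR adjusted p = 5.91e-05). Ncan, the brain proteoglycan neurocan, had 2 counts in MEF and 0 in muscle and 9.28 and 14.9 CPM in transdifferentiated cells, a ratio to MEF of 238 (95 percent Poisson interval 65.8 to 1960.0) and at least 77.7-fold above muscle. Slc1a2, the main glial glutamate transporter, was at 0.33 and 0.486, 1.02 and 0.426, and 10.5 and 9.2 CPM. Fabp7, a fatty acid binding protein of radial glia, was at 16.8 and 4.6 CPM in transdifferentiated cells, with the libraries unalike, against 1.07 CPM or less in every reference library. Other astrocyte genes did not follow. Slc1a3 was at 21.5 and 22.4, 0.384 and 0.183, and 15.1 and 11.6 CPM, and S100b, Aldh1l1 and Gja1 lay between the references as well. The list summed to 7129 and 5523 CPM in MEF, to 1940.0 and 1397 CPM in muscle, and to 2917 and 3225 CPM in transdifferentiated cells. Apoe, at 497 and 379 CPM against 31.2 or less in every reference library, is on the macrophage list too. Of 25 neuronal and synaptic genes tested, 1 was above both, Dcx (doublecortin), and 1 was below both. That list was fixed with the design, unlike the astrocyte list, so their counts cannot be set against each other. Some genes of neurons outside it were above both as well, such as Cadps, Slitrk4 and Gria2. Their means in transdifferentiated cells were 20.3, 16.9 and 1.73 CPM. Dcx was at 62.2 and 34.2 CPM in muscle and 187 and 147 CPM in transdifferentiated cells, and lost its call without Muscle replicate 2.

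Enzymes of steroid hormone synthesis formed another such list, also added after the values were seen. It had 5 of 11 tested genes above both and 1 below, beside 2.62% and 0.609% of all tested genes. The list summed to 343.6 and 293.5 CPM in MEF, to 147.7 and 178.6 CPM in muscle, and to 137.5 and 180.0 CPM in transdifferentiated cells, overlapping with muscle and under MEF. Cyp11a1, which cuts the side chain of cholesterol to make pregnenolone, was at 2.09 and 1.51 CPM in MEF, 0.0853 and 0.183 CPM in muscle, and 14.4 and 19.5 CPM in transdifferentiated cells. It exceeded MEF by 3.23 ± 0.41 (log2, SE; edgeR adjusted p = 0.000546). Hsd3b1, which makes progesterone from pregnenolone, was at 0.165 and 0.0971, 0 and 0, and 7.25 and 7.8 CPM, 5.79 ± 0.59 above MEF (adjusted p = 0.00029) and at least 48.5-fold above muscle. Cyp11b1, the 11-beta-hydroxylase of the adrenal cortex, was at 0.22 and 0.389, 0.0426 and 0, and 6.18 and 5.96 CPM. In all 3, as in every called gene, the transdifferentiated libraries lay apart from the references. Star, which brings cholesterol into mitochondria, was at 8.26 and 10.1 CPM against 3.11 or less in every reference library. It lost its call without Muscle replicate 1 (0.105) or 2 (0.112) or transdifferentiated replicate 2 (0.0515). Hsd11b2 lost its call without MEF replicate 1 (0.107), Muscle replicate 1 (0.153) or 2 (0.161), or transdifferentiated replicate 2 (0.156). Hsd17b7, which acts in cholesterol synthesis too, was the member below both, at 176 and 194, 42.4 and 63.1, and 21.9 and 27.8 CPM. It lost its call without Muscle replicate 1 (0.0682) or 2 (0.37) or transdifferentiated replicate 1 (0.199) or 2 (0.0617).

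**Figure D4:**
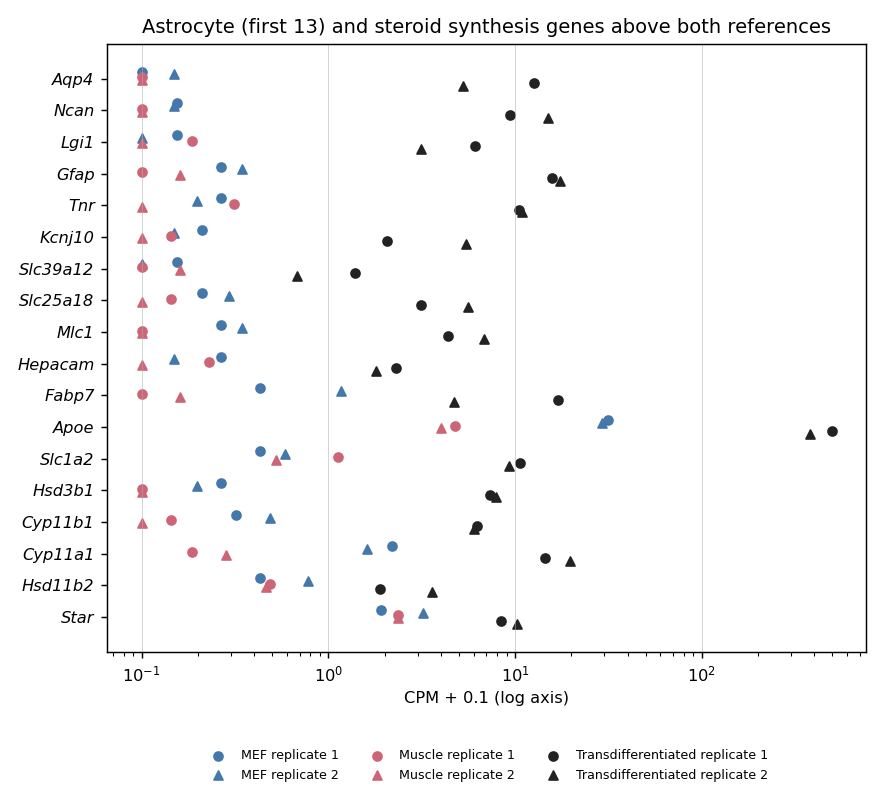
Level in each library, as CPM plus 0.1 on a log axis, of the 13 astrocyte-list genes (top) and 5 steroid synthesis genes (bottom) above both references. For Gfap, Ncan and Hsd3b1 the reference libraries lie at or near the left edge and both transdifferentiated libraries lie well to the right.

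The contractile programme was mostly higher than the average without being called above both references, where 2.62% of all tested genes were. Of 38 adult sarcomere genes 37 were higher than the average, but 2 were above both, and of 13 embryonic and early sarcomere genes 12 were higher than the average and 0 were above both. At the neuromuscular junction and triad, 25 of 29 were higher than the average and 0 above both. Xirp2, an actin-binding protein of the sarcomere, was at 123 and 164 CPM in muscle and 546 and 426 CPM in transdifferentiated cells. It lost its call without Muscle replicate 1 (adjusted p = 0.177) or 2 (0.106). Myh2, the myosin of fast oxidative fibres, was at 175 and 105 CPM in muscle and 341 and 414 CPM in transdifferentiated cells, and lost its call without Muscle replicate 2 (0.236) or transdifferentiated replicate 2 (0.0612). Vgll2, a muscle cofactor of TEAD proteins and the 1 of 25 myogenic regulators above both, was at 70.6 and 26.5 CPM in muscle and 157 and 244 CPM in transdifferentiated cells, and lost its call without Muscle replicate 2 (0.108).

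Below both references lay several secreted factors and receptors. Fibroblast growth factor 2 (Fgf2, chromosome 3, 37348346 to 37410108), a mitogen that holds back muscle differentiation, was at 62.5 and 82.2 CPM in MEF, 65.2 and 61.4 CPM in muscle, and 15.3 and 12.5 CPM in transdifferentiated cells. MEF and muscle overlapped and both transdifferentiated libraries were low. The log2 difference was -2.28 ± 0.26 from the average, -2.38 ± 0.28 from MEF and -2.19 ± 0.28 from muscle (SE; edgeR adjusted p = 0.000382, 0.000335 and 0.00149). Fgf2 overlaps an antisense gene, and without a stated strand setting reads of the pair cannot be told apart.

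Among the 28 tested ligands, receptors and feedback regulators of the FGF family, Fgf2 alone was below both and Fgf1 alone above both. Over all tested genes, 0.609% were below both and 2.62% above. Fgf1, the other widely acting ligand, was at 0.826 and 1.8, 3.67 and 3.53, and 14.4 and 16.8 CPM. It exceeded muscle by 2.11 ± 0.40 (log2, SE; edgeR adjusted p = 0.0119) and lost its call without Muscle replicate 1 (0.0858) or 2 (0.101). The receptor Fgfr1 was at 609 and 403, 232 and 222, and 144 and 227 CPM, lower than in MEF. Fgfr2 and Fgf10 lay between the references, lower than in MEF and higher than in muscle. Fgfr4, a receptor of muscle progenitors, was at 0.22 and 0.146, 30.1 and 26, and 8.38 and 14.6 CPM. Fgf9, Fgf11, Fgf12, Fgf13, Fgfr3, Fgfrl1, Fgfbp1 and Fgf6 were higher than in MEF and not called against muscle, and so was Fgfr4 (adjusted p = 0.0502). Fgf5, Fgf7, Fgfbp3 and, of the feedback regulators and targets, Spry4, Dusp6 and Etv4 were lower than in MEF and not called against muscle. Fgf21 was at 0.606 and 0.389, 41.4 and 58.9, and 2.75 and 3.15 CPM, above MEF, with a log2 difference of -4.08 ± 0.35 from muscle. Spry1 was lower and Spry2 higher than in muscle, and neither was called against MEF. Fgf16, Fgf18, Spred1, Spred2 and Etv5 were called against neither.

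The TGF-beta and BMP list gave 3 of 39 tested genes below both, where 0.609% of all tested genes were, and none above. Inhba, the activin A subunit (chromosome 13, 16011851 to 16031621), was at 436 and 656 CPM in MEF, 189 and 197 CPM in muscle, and 50.1 and 45.2 CPM in transdifferentiated cells. It was highest in MEF, and muscle was the nearer reference, at a log2 difference of -2.02 ± 0.27 (SE; edgeR adjusted p = 0.00226). Grem1, a secreted BMP antagonist, was at 344 and 392, 32.5 and 25.4, and 13.9 and 10.2 CPM, and lost its call without Muscle replicate 1 (0.159) or 2 (0.0649) or transdifferentiated replicate 2 (0.0987). Outside that list but among the 12 farthest below, Eng, a TGF-beta co-receptor, was at 135 and 68.5, 125 and 51.9, and 8.66 and 22 CPM, and lost its call without Muscle replicate 1 (0.15). Lrrc32, which tethers latent TGF-beta to the cell surface, was at 903 and 494, 216 and 102, and 25.3 and 47.2 CPM, and lost its call without Muscle replicate 1 (0.138) or transdifferentiated replicate 1 (0.0533).

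Other receptors and secreted proteins were below both. The hepatocyte growth factor receptor Met was at 13.5 and 21.1 CPM in MEF, 11.6 and 21.6 CPM in muscle, and 2.75 and 1.84 CPM in transdifferentiated cells, -2.85 ± 0.45 from muscle (log2, SE; edgeR adjusted p = 0.00464). S1pr1, a sphingosine 1-phosphate receptor, was at 63.2 and 52.5, 39.4 and 71.6, and 13.9 and 14.3 CPM, and lost its call without Muscle replicate 2 (0.0566). Ptgs2, the inducible cyclooxygenase, was at 540.3 and 763, 215 and 265, and 87.5 and 43 CPM, and lost its call without Muscle replicate 2 (0.0772). The cytokine Il11 lost its call without Muscle replicate 1 (0.163) or transdifferentiated replicate 1 (0.0626). Of the insulin-like growth factor axis, Igfbp7 was below both, at 86.5 and 113 CPM against 240.2 or more in every reference library, and lost its call without Muscle replicate 1 (0.0832). The binding protein Igfbp5 was above both, at 359 and 313, 1224 and 1275, and 3196 and 4329 CPM, and stood at adjusted p = 0.0506 and 0.0532 without Muscle replicate 1 or 2.

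Others of the 12 farthest below were of several kinds. Dglucy, D-glutamate cyclase of mitochondria, was at 48.5 and 51.8, 48.1 and 43.3, and 11.7 and 12.5 CPM, with narrow groups. Rpl29, a ribosomal protein gene with processed copies elsewhere in the genome, was at 44.1 and 31.4, 42.4 and 45.1, and 6.02 and 7.75 CPM, and is uncertain because reads of its copies may be split. Gm15772 was at 152 and 216, 248 and 294, and 36.7 and 17.8 CPM. AI506816 was at 61.8 and 35.6, 43.6 and 30.1, and 8.1 and 9.54 CPM, and lost its call without Muscle replicate 1 (adjusted p = 0.0526).

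**Figure D5:**
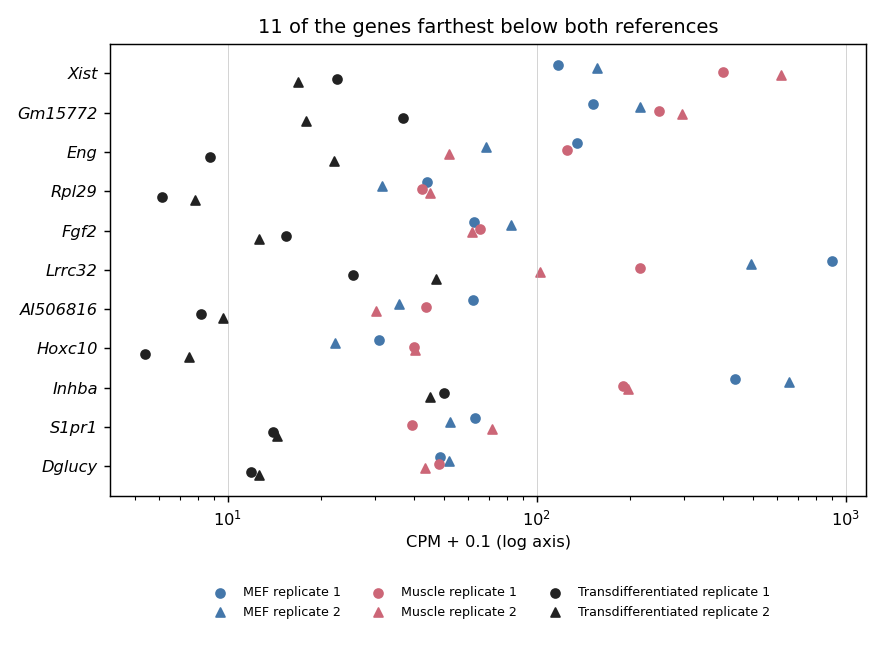
Level of 11 of the 12 genes farthest below both references in each library, as CPM plus 0.1 on a log axis. Circles are replicate 1 and triangles replicate 2. Genes were chosen only where both transdifferentiated libraries lie to the left of all 4 reference libraries.

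Hox genes, which set position along the body axis, were below both in 4 of 37 tested cases and above both in 0. The shares over all tested genes were 0.609% below and 2.62% above. All 4 Hox genes below both were neighbours at the posterior end of the HoxC cluster on chromosome 15. Hoxc10 was at 30.7 and 22.1 CPM in MEF, 39.8 and 40.1 CPM in muscle, and 5.28 and 7.36 CPM in transdifferentiated cells. Hoxc11 was at 14.9 and 8.94, 20.7 and 18.9, and 1.18 and 1.21 CPM, and Hoxc13 at 22.8 and 14.4, 17.2 and 16.4, and 2.81 and 3.1 CPM. Their smaller log2 differences were -2.06 ± 0.31, -3.31 ± 0.39 and -2.51 ± 0.35 (SE; edgeR adjusted p = 0.00152, 0.000378 and 0.00249). Hoxc12 was at 3.03 and 3.11, 2 and 0.974, and 0.0562 and 0.0968 CPM, and lost its call without Muscle replicate 1 (0.0535). In these 4, as in every called gene, the references did not overlap with the transdifferentiated cells. Among the other HoxC genes, Hoxc4, Hoxc6 and Hoxc9 were lower than both reference means without both calls, and Hoxc5 and Hoxc8 lay between the references. No gene of HoxA (11 tested), HoxB (9) or HoxD (8) was called outside both references. Lef1, a transcription factor of Wnt signalling, was also below both, at 7.77 and 5.1, 4.35 and 3.23, and 0.562 and 0.436 CPM, while Nkd1, a Wnt antagonist and target, was above both, at 5.62 and 4.61, 2.98 and 1.34, and 15.1 and 26.1 CPM.

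Lists of stress, defence and tissue genes each had 1 to 3 members above both, where 2.62% of all tested genes were, and nothing about a list is read from so few genes. Prg4, the lubricating proteoglycan of joints and 1 of 13 tendon and cartilage genes above both, was at 6.55 and 7.09 CPM in MEF, 2.3 and 2.86 CPM in muscle, and 24 and 18.5 CPM in transdifferentiated cells, 1.64 ± 0.32 above MEF (log2, SE; edgeR adjusted p = 0.00547). Of 30 interferon response genes 2 were above both. Ifi27l2a, an interferon-induced gene, was at 4.41 and 4.95, 0.426 and 0, and 37.2 and 26.1 CPM, and Oas2, a sensor of double-stranded RNA, lost its call without MEF replicate 2 (0.0839) or transdifferentiated replicate 1 (0.12). Of 34 hypoxia and glycolysis genes 3 were above both and 1 below. Ndrg1, a hypoxia-induced gene, was at 63.4 and 51.9, 27.2 and 18.3, and 134 and 115 CPM and lost its call without MEF replicate 2 (0.0749) or transdifferentiated replicate 1 (0.068), and the glucose transporter Slc2a3 lost its call without transdifferentiated replicate 1 (0.0509), Muscle replicate 2 (0.0916) or MEF replicate 2 (0.0612). Mt3, a metallothionein and 1 of 26 oxidative stress genes above both, was at 1.54 and 1.12, 5.67 and 2.98, and 15.8 and 16.7 CPM and lost its call without Muscle replicate 2 (0.154). Hey1, a Notch target and 1 of 18 Notch genes above both, was at 2.48 and 2.53, 4.26 and 3.77, and 12.9 and 10.8 CPM. It lost its call without Muscle replicate 1 (0.118) or 2 (0.173) or transdifferentiated replicate 1 (0.0928).

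Lists with no gene called outside both references, where 2.62% of all tested genes were above and 0.609% below, were cell cycle (47 genes), respiratory chain (43), p53 targets (25), the DNA methylation machinery (22), heat shock (20), immediate early genes (20), smooth muscle and contractile fibroblast genes (19) and the mitochondrial genome (13). Cholesterol and fatty acid synthesis was another, with 29 tested, of which 15 were lower than the average. The fatty acid elongase Elovl6, named after its values were seen, was at 64.4 and 91.9 CPM in MEF, 4.05 and 5.54 CPM in muscle, and 7.53 and 4.55 CPM in transdifferentiated cells, with muscle and transdifferentiated cells overlapping.

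Genes of sex chromosomes and of macrophages moved in these same libraries. Xist, the X-inactivation RNA, was at 117 and 157 CPM in MEF, 399 and 616 CPM in muscle, and 22.4 and 16.8 CPM in transdifferentiated cells, below both. It overlaps the antisense gene Tsix. The Y-linked Eif2s3y was at 8.26 and 19, 0.0426 and 0, and 45.4 and 26.6 CPM. It was called above both, and lost its call with RLE scaling (adjusted p = 0.0503) and without transdifferentiated replicate 1 (0.206), Muscle replicate 1 (0.0627) or 2 (0.0619), or MEF replicate 1 (0.171). The Y-linked Kdm5d was not called against MEF (0.145) and had 1 count in muscle. The sources used here give no sex for any library. Chromosome X held 22 of the 295 genes above both, 3.571% of its 616 tested genes outside the leukocyte lists. Chromosome 12 held 21 of 651 (3.226%), where 1.73% of all such genes were above both. Of these 21, 7 came from the Dlk1-Dio3 cluster, by a list added after the values were seen. The part of sex in the results was not tested.

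The macrophage and myeloid list had 128 of 294 tested genes above both and 1, Smpdl3b, below, beside 2.62% and 0.609% of all tested genes. Its median log2 difference from the average was 3.0, beside 0.08 over all tested genes. Its summed level was 4870.0 and 4194 CPM in MEF, 3627 and 3367 CPM in muscle, and 6899 and 7013 CPM in transdifferentiated cells. Of its defining markers, Adgre1 and Ptprc were at 0 in both muscle libraries. Their means were 1.35 and 0.955 CPM in MEF, and 29.2 and 5.25 CPM in transdifferentiated cells. Ptprc lost its call with a replicate block (edgeR adjusted p = 0.0559), and without MEF replicate 1 or transdifferentiated replicate 1. C1qa was at 1.27 and 1.46, 0.0426 and 0.0609, and 43.7 and 48.8 CPM, and Csf1r at 11.8 and 10.9, 0.682 and 0.669, and 48 and 64 CPM. Cd68 had means of 7.66 CPM in MEF, 1.52 CPM in muscle and 31.9 CPM in transdifferentiated cells. Some of the 295 genes described above, Itga4 among them, are carried by leukocytes as well, and the part of such cells in those genes was not tested. Of the other cell type lists, Erg, an endothelial transcription factor, was 1 of 11 endothelial genes above both (4.44 and 3.92 CPM). It lost its call without MEF replicate 2. The Schwann and glia list gave 2 of 11 above both, Gfap and Fabp7, and the bone list 1 of 8. The list of leukocytes other than macrophages had 1 tested gene, which was above both. No adipocyte or mesothelial and epithelial gene was called outside both.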

How the data were processed

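Messenger RNA libraries were made from total RNA with a Lexogen SENSE kit and sequenced as single-end reads, per the labels' protocols. The deposited table holds the authors' raw counts, as whole numbers for each gene symbol. The submitters' processing notes name mm10, featureCounts 1.6.2, HISAT2 2.1.0, DESeq2 1.26.0 and Trim Galore 0.6.0, with no roles. The sources used here do not tell which annotation and strand setting the counting used, so overlapping, antisense and near-identical genes are uncertain.

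Counts were fitted in R 4.3.3 with edgeR 4.0.16. TMM factors, filterByExpr by group (17400 genes kept of 55286 symbols) and a robust legacy quasi-likelihood model of group over all 6 libraries left 3 residual degrees of freedom. Calls were made at a Benjamini-Hochberg adjusted p under 0.05 over all tested genes. The biological coefficient of variation was 27.3%. The fit was tested on simulated data. DESeq2 1.42.0, other scalings and filters, a replicate block and left-out libraries were alternatives.

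The named genes were the 12 in each direction with the largest distance from the nearer reference, outside the macrophage list, with libraries that did not overlap and at least 20 CPM. To these were added the contrast's marker genes (Atp1b4, Tnn and Fgf2), up to 4 members per list and direction, and the sodium pump, matricellular and fibroblast growth factor families. Members and lists were chosen with earlier results of these data known, and 6 lists were added after the values were seen. Positions are from GENCODE M21 (mm10), matched by symbol for 53362 symbols. Promoter sequences are RefSeq's on GRCm38.p6, the same assembly as mm10. The authors' deposited comparison table was not used here. A few genes under the rule are not reported here.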

Additional observations from a re-analysis of the deposited data

How the results depend on the processing

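Genes higher than the reference average numbered 2106, with 1623 to 2201 when 1 library was left out. Genes lower than the average numbered 529, with 816 under DESeq2, 794 with no filter on low counts and 247 to 688 with 1 library left out. Genes above both references numbered 456, with 521 under DESeq2, 648 with no filter and 236 to 475 with 1 library left out. Genes below both numbered 106, with 156 under DESeq2, 156 with no filter and 40 to 126 with 1 library left out. A rule that asked only for every transdifferentiated library to lie beyond every reference library, with no test, took 1926 genes above and 1244 below. Where 1 library was left out, its group held a lone library assumed to vary like the other groups. A replicate block gave 1759 higher and 288 lower than the average, and 324 above and 68 below both. The numbers do not pair the libraries: deviations of same-numbered libraries correlated at 0.314 between MEF and muscle, -0.529 between MEF and transdifferentiated cells and -0.291 between muscle and transdifferentiated cells. Of 152 genes named or listed for naming and called, 63 kept their call in every setting, and no direction reversed. With 2 libraries a group, an exact permutation of 2 against 4 cannot give a two-sided p under 0.0667. The single contrasts set 2 against 2, where that limit is 0.333. Depth limits genes at a few counts, whose folds are given as bounds or with counting intervals.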
